A study of Mus musculus with 9 samples.

Results

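The Slc25 family is a group of nuclear genes, most of which encode mitochondrial carriers. Its members were taken by name and type, as the protein-coding genes of the deposited count table whose symbol begins with Slc25a followed by a number. This gave 47 genes of the 35275 listed, and 40 of them were among the 13901 genes that passed the filter on low counts. They were followed in gastrocnemius, a calf muscle of mostly fast fibres, from wild-type female NSG mice aged 12 weeks, an immunodeficient strain without mature lymphocytes. The mice had received extracellular vesicles (EVs, small membrane sacs shed by cells) into the tail vein. The MDA-MB-231 EV group (5 libraries) was given EVs of a human breast cancer line, and the MCF-10A EV group (4 libraries) EVs of a non-tumorigenic human breast epithelial line. In both groups the dose was about 10 µg per injection, 2 injections a week for 5 weeks, 10 injections in all, and the muscle was taken 2 days after the last. Every mouse used here received EVs, so no value below is a difference from an uninjected animal. The labels do not say how many mice stand behind a library, and the p-values measure only the spread between these libraries.

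Most carriers of this family span the inner mitochondrial membrane. They move nucleotides, phosphate, carboxylates, amino acids and cofactors between cytosol and matrix, usually by exchanging a molecule on each side. In muscle they are best known for exporting ATP in exchange for ADP, for supplying phosphate to ATP synthase, and for carrying the reducing equivalents of glycolysis inward through the malate-aspartate shuttle. Each carrier is built from a repeated module, and every repeat holds a short signature that starts with proline and has an acidic residue, then a basic residue, at fixed spacings.

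The coding sequence around the first signature is shown for the adenine nucleotide carriers, which exchange ADP for ATP, because their mean levels span 0.0348 to 1934 FPKM (reads per length and library size) while their sequences are close. The capitals mark the 6 codons of the signature, in coding bases 52 to 129 of Slc25a4 and Slc25a5 and 91 to 168 of Slc25a31, from the GENCODE M21 transcripts (GRCm38).
Slc25a4: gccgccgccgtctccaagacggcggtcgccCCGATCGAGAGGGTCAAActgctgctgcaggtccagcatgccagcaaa
Slc25a5: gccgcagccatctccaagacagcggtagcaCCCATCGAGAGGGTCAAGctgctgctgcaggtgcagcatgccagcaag
Slc25a31: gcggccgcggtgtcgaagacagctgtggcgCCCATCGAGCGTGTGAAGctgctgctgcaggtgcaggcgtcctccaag
Over these 78 bases, Slc25a5 had the same base as Slc25a4 at 69 and Slc25a31 at 57. Over the whole aligned coding sequence, Slc25a4 and Slc25a5 had 695 of 897 bases in common (77.5%) and Slc25a4 and Slc25a31 had 67.0%. Coding sequences of the 47 members held 265 to 677 codons (median 318). In 27 members 3 signatures were found, in 12 members 2, in 5 members 1, and in Slc25a46, Slc25a51 and Slc25a53 none by this letter pattern.

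Libraries held 13943465 to 25195826 counts, and a floor of 3 counts, which covers counting error only, stood for 0.119 to 0.215 CPM (read counts of a gene relative to library size, scaled by TMM factors). The tissue label was checked against 7 myofibre markers, which summed to 98649 to 122752 CPM in MDA-MB-231 EV and 134503 to 170420 CPM in MCF-10A EV. None of these 7 was at 0. The 12 slow-fibre markers summed to 1093 to 4692 CPM in MDA-MB-231 EV and 278 to 4378 CPM in MCF-10A EV, with MCF-10A EV replicate 1 the lowest. Markers of pancreatic islet cells, 5 in number, summed to 71.3 to 145 CPM in 3 MDA-MB-231 EV and 2 MCF-10A EV libraries and to 1.21 to 2.20 CPM in the other 4.

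Slc25a4 dominated the family. Levels were compared between genes by the deposited FPKM, which are per length. Slc25a4 averaged 1934 ± 138 FPKM (SD, n = 9 libraries), and 30 genes of the table had a higher mean. It was followed by Slc25a11, the oxoglutarate-malate carrier, at 213 ± 24.8 FPKM and Slc25a3, the phosphate carrier, at 188 ± 22.3 FPKM. The library ranges of these 3 carriers place Slc25a4 above the other pair, while Slc25a11 and Slc25a3 overlapped. Slc25a12, the aspartate-glutamate carrier of muscle and brain, came next at 99.8 ± 6.07 FPKM with no overlap to either neighbour in the order. Below it every member overlapped the next in rank. The order went on with Slc25a39, needed for glutathione import, at 34.2 ± 4.73 FPKM. Slc25a20, the carnitine-acylcarnitine carrier, was at 33.6 ± 8.29 FPKM, and Slc25a5, the second adenine nucleotide carrier, at 33.5 ± 5.05 FPKM. Uncoupling proteins (Ucp), Mtch and Mpc genes do not bear the Slc25 name and were left out of this order. Of these, Mpc2 averaged 75.6, Mtch1 56.7 and Ucp3 48.0 FPKM, above Slc25a39. Mtch2, Mpc1, Ucp2 and Ucp1 lay below it.

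**Figure D1:**
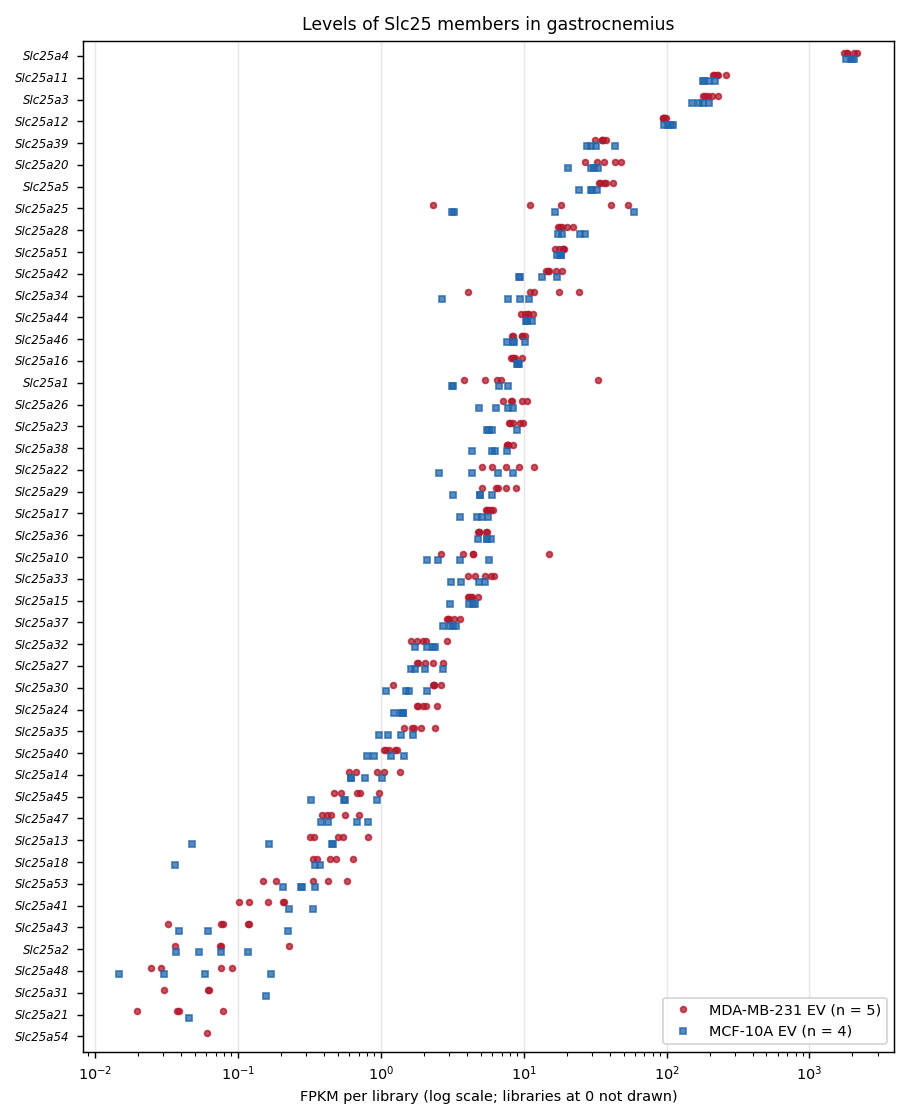
FPKM of the Slc25 members reported here in every library on a log axis, with MDA-MB-231 EV in red and MCF-10A EV in blue and members ordered by their mean. Slc25a4 stands near 1934 FPKM, 3 members reach 100 FPKM or more, and 13 lie under 1 FPKM.

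By mean FPKM, 3 members stood at 100 or more, 11 from 10 to 100, 20 from 1 to 10 and 13 under 1. All members together held 0.637% ± 0.0426 of the counts in MDA-MB-231 EV (SD, n = 5) and 0.617% ± 0.0472 in MCF-10A EV (SD, n = 4), and the ranges overlapped. Of the summed FPKM of the family, Slc25a4 alone made up 66.4% to 70.7% in MDA-MB-231 EV and 70.3% to 72.9% in MCF-10A EV. These shares overlapped as well.

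No member passed the comparison of the EV groups. With edgeR's quasi-likelihood test, 0 of 40 had a Benjamini-Hochberg adjusted p under 0.05, and over all 13901 genes 0 did (0%). The smallest adjusted p of a member was 0.294, against 0.133 over all genes. At an unadjusted p under 0.05, 1 member was higher in MDA-MB-231 EV (Slc25a24), where 5.95% of all genes were, and 3 were lower (Slc25a12, Slc25a36 and Slc25a16), where 6.86% of all genes were. Together these 4 of 40 members lie beside 12.8% of all genes. The TMM factors that scale library sizes ran from 0.910 to 0.985 in MCF-10A EV and from 1.02 to 1.06 in MDA-MB-231 EV, without overlap. With library sizes left unscaled the count of members was 8 higher and 0 lower, where 14.7% of all genes were higher and 1.62% lower. It was 5 higher and 3 lower when MCF-10A EV replicate 4 was left out (6.49% and 8.34% of all genes), and 4 higher and 3 lower when MDA-MB-231 EV replicate 4 was (5.17% and 5.50%). Groups did not overlap by CPM in 1 member that was higher (Slc25a24; 2.22% of all genes) and 1 that was lower (Slc25a12; 3.17% of all genes), so in 2 of 40, beside 5.40% of all genes. DESeq2 called 1 member, Slc25a12, where it called 2.75% of 7913 genes with an adjusted p (2.07% lower), and limma voom called none, with 2 members higher and 3 lower at an unadjusted p under 0.05 (6.13% and 6.32% of all genes).

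In 35 of the 40 members the log2 fold change (MDA-MB-231 EV divided by MCF-10A EV) was within 0.5 of 0. The share of all genes within that range was not counted, so this number is not read as a trait of the family. The log2 fold change was above 0 in 24 members (60.0%, beside 53.1% of all genes), with a median of 0.14 beside 0.02 over all genes. With unscaled library sizes the median over all genes shifted to 0.15 and that of the members to 0.27. Leaving out MCF-10A EV replicates 1 and 2 together, a choice made after seeing the data, gave a median of 0.01 for members and 0.008 for all genes. Leaving out a single library moved the members' median by over 1.5 times in 4 cases, to 0.063 and 0.043 for MDA-MB-231 EV replicates 2 and 4, and to 0.043 and 0.072 for replicates 1 and 2 of MCF-10A EV.

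**Figure D2:**
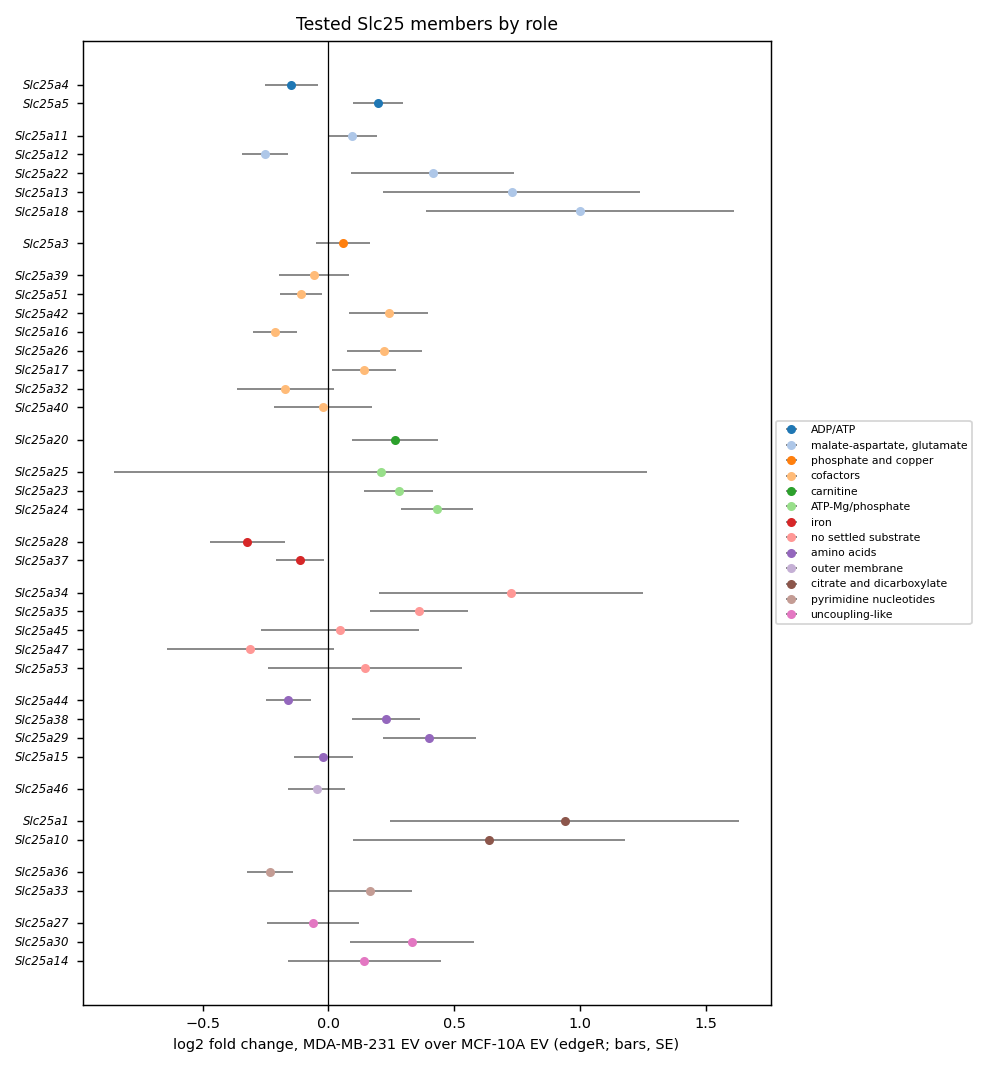
Log2 fold change (MDA-MB-231 EV divided by MCF-10A EV) with its standard error for the tested members reported here, grouped by role, from edgeR. Points right of 0 are higher in MDA-MB-231 EV, none passed the adjusted threshold, and most lie within 0.5 of 0.

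Of the adenine nucleotide carriers, Slc25a4 (ENSMUSG00000031633; mm10, chromosome 8, 46206797 to 46211284, minus strand) is the form of heart and skeletal muscle. It was at 3815, 3930, 3477, 3203 and 3367 CPM in the 5 MDA-MB-231 EV libraries in order, against 3802, 4063, 3865 and 4031 CPM in the 4 MCF-10A EV libraries. MDA-MB-231 EV replicates 3, 4 and 5 lay below all MCF-10A EV libraries and the other two lay among them. The log2 fold change was -0.15 ± 0.10 (SE; edgeR adjusted p = 0.562), and with unscaled library sizes it was -0.01. Slc25a5, the form common in dividing and non-muscle cells, was at 44.0, 43.8, 41.4, 49.8 and 39.9 CPM in the MDA-MB-231 EV group, against 33.5, 40.0, 37.8 and 41.5 CPM in MCF-10A EV. The groups overlapped, with 3 MDA-MB-231 EV libraries above every MCF-10A EV library. Its log2 fold change was 0.20 ± 0.099 (SE; edgeR adjusted p = 0.423), and 0.33 with unscaled library sizes. Slc25a31, the form of the testis, was near the floor at 0.0348 FPKM with 0 counts in 5 libraries.

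Set against each other within a library, which no scaling between libraries can alter, the ratio of Slc25a4 to several other carriers did not overlap between the groups. The FPKM of Slc25a4 was 55.8, 57.8, 54.1, 41.4 and 54.3 times that of Slc25a5 in MDA-MB-231 EV, against 73.1, 65.4, 65.8 and 62.6 times in MCF-10A EV. The means were 52.7 ± 6.47 (SD, n = 5) in MDA-MB-231 EV and 66.7 ± 4.48 (SD, n = 4) in MCF-10A EV, and every MDA-MB-231 EV library was lower than every MCF-10A EV library. The FPKM ratio of Slc25a3 over Slc25a4 was 0.101 to 0.105 in MDA-MB-231 EV and 0.0843 to 0.0964 in MCF-10A EV, with means of 0.103 ± 0.0019 in MDA-MB-231 EV and 0.0897 ± 0.00521 in MCF-10A EV (SD) and again no overlap. These ratios were looked at after the values were known and carry no test. Ratios of Slc25a4 over Slc25a11, Slc25a24 and Slc25a38 also lay lower in MDA-MB-231 EV without overlap, which makes 5 other members in all. All 5 comparisons use the same Slc25a4 value in each library, so they are not independent of each other. Slc25a24 also separated the groups by its own CPM. Such ratios were sought among the 40 tested members except Slc25a4 itself and Slc25a18, which had a library at 0 counts. Over 13673 genes, 6.09% had such a ratio lower without overlap, and 6.29% a ratio without overlap in either direction. Marker sums of muscle fibres and of endothelium are given beside these ratios, and no single marker passed the test. The 7 myofibre markers (1 above 0 and 6 below 0, sums given above) had sums that did not overlap. So did the 12 fast-fibre markers (0 above 0 and 12 below 0), at 120659 to 149681 CPM in MDA-MB-231 EV and 162015 to 225676 CPM in MCF-10A EV. At an unadjusted edgeR p under 0.05, 4 myofibre and 7 fast-fibre markers were lower, where 6.86% of all genes were. At that level 1 myofibre and 0 fast-fibre markers were higher, where 5.95% of all genes were. Both lists hold Myh4, a fast myosin heavy chain, and without it both sums overlapped. The myofibre sum was then 68744 to 76924 CPM in MDA-MB-231 EV and 75322 to 85168 CPM in MCF-10A EV, and the fast-fibre sum 89006 to 112372 CPM in MDA-MB-231 EV and 107927 to 140424 CPM in MCF-10A EV. The 8 endothelial markers (6 above 0 and 2 below 0, none at 0) summed to 397 to 546 CPM in MDA-MB-231 EV and 336 to 411 CPM in MCF-10A EV, with overlap. Of these 8, 4 were higher and 0 lower at the same unadjusted level. The part of these markers in the ratios was not tested, and in a bulk muscle sample fewer cells of a type and less RNA per cell cannot be told apart.

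**Figure D3:**
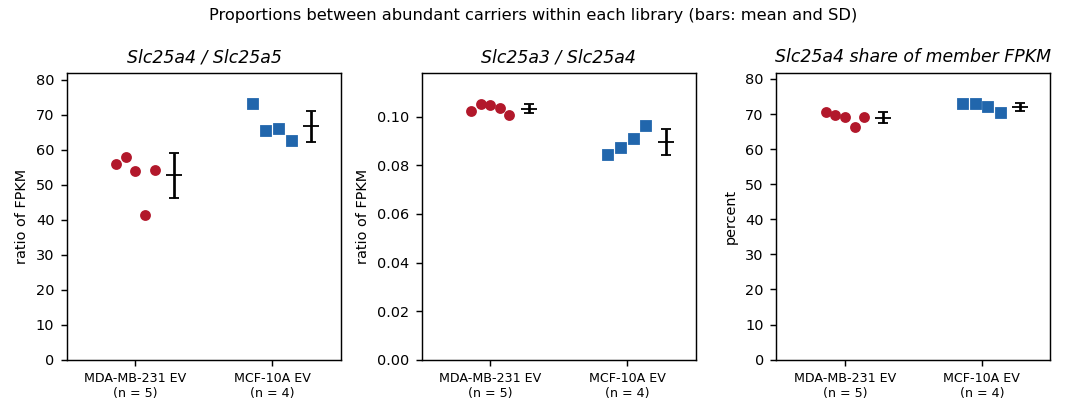
Ratios of deposited FPKM within each library, and the percent of the family's FPKM held by Slc25a4, with 1 point per library and bars for the mean and SD, MDA-MB-231 EV on the left and MCF-10A EV on the right. Slc25a4 over Slc25a5 lies at 41.4 to 57.8 in MDA-MB-231 EV and 62.6 to 73.1 in MCF-10A EV, and Slc25a3 over Slc25a4 at 0.101 to 0.105 in MDA-MB-231 EV and 0.0843 to 0.0964 in MCF-10A EV.

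Slc25a3, the carrier that brings phosphate for ATP synthesis and copper for cytochrome oxidase into the matrix, did not separate the groups on its own. It was at 820, 869, 766, 696 and 712 CPM in the MDA-MB-231 EV group, against 673, 743, 736 and 815 CPM in MCF-10A EV. Its log2 fold change was 0.06 ± 0.11 (SE; edgeR adjusted p = 0.854), and from -0.01 to 0.19 over the alternatives. The mitochondrial mass markers, 16 genes of the respiratory chain and matrix, summed to 11916 to 14281 CPM in MDA-MB-231 EV and 11918 to 14014 CPM in MCF-10A EV, so their sums spanned almost the same range.

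The malate-aspartate shuttle and glutamate carriers number 5, all tested, with 4 above 0 and 1 below 0. Slc25a12 (ENSMUSG00000027010; mm10, chromosome 2, 71271063 to 71367749, minus strand) exchanges matrix aspartate for cytosolic glutamate and is the calcium-regulated step of the shuttle. It was at 589, 596, 594, 586 and 566 CPM in the MDA-MB-231 EV group, against 674, 742, 657 and 722 CPM in MCF-10A EV. All 5 MDA-MB-231 EV libraries lay below all 4 MCF-10A EV libraries, and they were close together. The means were 586 ± 12.3 CPM (SD, n = 5) in MDA-MB-231 EV and 699 ± 39.8 CPM (SD, n = 4) in MCF-10A EV. In edgeR this gave a log2 fold change of -0.25 ± 0.091 (SE; unadjusted p = 0.0162, adjusted p = 0.310). DESeq2 gave -0.26 with an adjusted p of 0.0114, voom an adjusted p of 0.312. By deposited FPKM, which carry no scaling factor, the groups overlapped, at 95.1, 99.8, 95.7, 96.5 and 93.8 FPKM in MDA-MB-231 EV and 96.5, 108, 102 and 111 FPKM in MCF-10A EV. Over all alternatives the log2 fold change ran from -0.28 to -0.11 and the adjusted p from 0.0114 to 0.691.

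Slc25a11 works beside it, exchanging oxoglutarate for malate. It was at 360, 420, 376, 372 and 341 CPM in the MDA-MB-231 EV group, against 344, 333, 344 and 379 CPM in MCF-10A EV. The groups overlapped (log2 fold change 0.09 ± 0.098, SE; edgeR adjusted p = 0.709; from 0.05 to 0.23 over the alternatives). Slc25a11 overlaps Rnf167 on the other strand by 245 bases, and Rnf167 averaged 27.6 CPM. Slc25a13, the liver counterpart of Slc25a12 with 72.1% of aligned coding bases in common, was low, at 2.46, 0.944, 1.66, 1.02 and 1.49 CPM in the MDA-MB-231 EV group and 0.165, 1.56, 1.45 and 0.525 CPM in MCF-10A EV. MCF-10A EV replicate 1, the lowest, rested on 3 counts. The log2 fold change of 0.73 ± 0.51 (SE) was 0.38 without that library and 1.10 without MCF-10A EV replicate 3. Slc25a12 exceeded Slc25a13 by 118 to 310 times in FPKM in MDA-MB-231 EV and by 223 to 2006 times in MCF-10A EV. The glutamate carriers were Slc25a22, named after its values were seen, at 15.9 to 36.6 CPM in MDA-MB-231 EV and 9.24 to 27.9 CPM in MCF-10A EV, and Slc25a18, with 10 to 17 counts in MDA-MB-231 EV and 0 to 12 counts in MCF-10A EV.

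**Figure D4:**
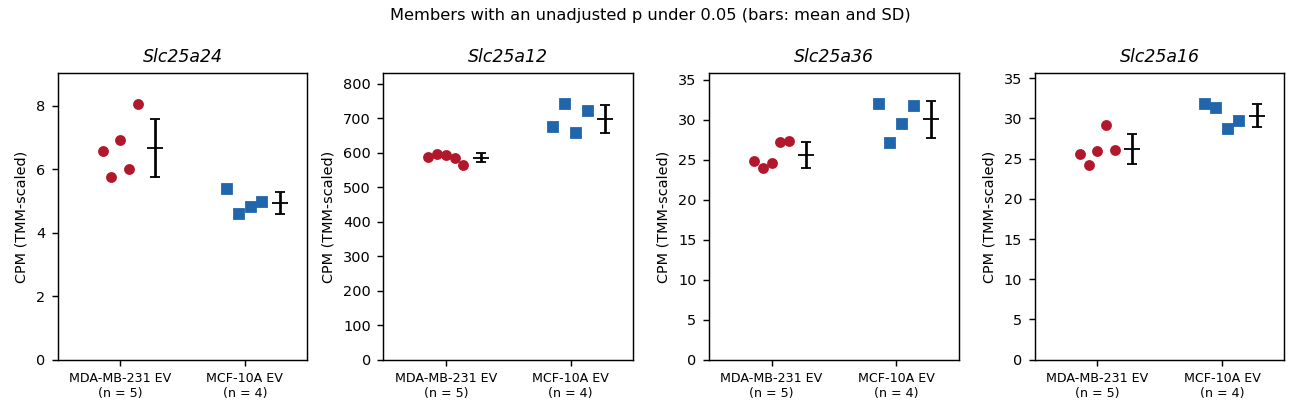
TMM-scaled CPM of the 4 members with an unadjusted edgeR p under 0.05, 1 point per library and bars for the mean and SD, MDA-MB-231 EV on the left and MCF-10A EV on the right. Slc25a24 is higher and Slc25a12 lower in MDA-MB-231 EV without overlap, while Slc25a36 and Slc25a16 overlap.

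The ATP-Mg/phosphate carriers exchange ATP-Mg for phosphate and so set the adenine nucleotide content of the matrix. Of 4 members 3 were tested, and all 3 had log2 fold changes above 0. Slc25a24 (ENSMUSG00000040322; mm10, chromosome 3, 109123149 to 109168457, plus strand) had the smallest p of the family. It was at 6.57, 5.76, 6.94, 6.02 and 8.06 CPM in the MDA-MB-231 EV group, against 5.39, 4.59, 4.80 and 4.98 CPM in MCF-10A EV. Every MDA-MB-231 EV library lay above every MCF-10A EV library, on 122 to 173 counts and 59 to 119 counts. The means were 6.67 ± 0.904 CPM (SD, n = 5) in MDA-MB-231 EV and 4.94 ± 0.341 CPM (SD, n = 4) in MCF-10A EV. In edgeR this gave a log2 fold change of 0.43 ± 0.14 (SE; unadjusted p = 0.0107, adjusted p = 0.294). Its unadjusted p was 0.0616 with a replicate block and the adjusted p ran from 0.140 to 0.672 over the alternatives. DESeq2 gave it no adjusted p. The endothelial sums given above ran higher in MDA-MB-231 EV too, with overlap, and their part in this value was not tested. Slc25a23 was at 30.9, 31.1, 26.1, 27.2 and 25.4 CPM in the MDA-MB-231 EV group and 21.01, 20.1, 30.7 and 20.6 CPM in MCF-10A EV. MCF-10A EV replicate 3 lay among the MDA-MB-231 EV libraries and the other 3 below all of them. Its log2 fold change was 0.28 ± 0.14 (SE; edgeR adjusted p = 0.416), and 0.45 without that library (adjusted p = 0.211).

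Slc25a25 (ENSMUSG00000026819; mm10, chromosome 2, 32414487 to 32451445, minus strand) had the largest coefficient of variation of the 14 carriers with a mean of 10 FPKM or more. It was at 7.98, 37.0, 63.1, 182 and 138 CPM in the MDA-MB-231 EV group, against 12.7, 12.0, 59.1 and 212 CPM in MCF-10A EV. Low and high libraries stood in both groups, and the highest was 26.6 times the lowest. That coefficient, over the 9 libraries, was 96.5%, at percentile 99.6 of all tested genes. Naif1, which averaged 5.61 CPM, overlaps Slc25a25 by 989 bases on the other strand. The log2 fold change of Slc25a25 was 0.21 ± 1.06 (SE). It changed sign when replicate 4 or 5 of MDA-MB-231 EV or replicate 1 or 2 of MCF-10A EV was left out. Without MCF-10A EV replicate 4 it was 1.60. In other mouse work this gene is known to respond quickly to cyclic AMP. For that reason 300 bases of a promoter of it are shown, together with those of Slc25a36, the other member whose window holds the cAMP response element TGACGTCA (in capitals), from RefSeq on GRCm38.p6, both on the minus strand, chr2:32424017-32424316 and chr9:97110992-97111291.
Slc25a25: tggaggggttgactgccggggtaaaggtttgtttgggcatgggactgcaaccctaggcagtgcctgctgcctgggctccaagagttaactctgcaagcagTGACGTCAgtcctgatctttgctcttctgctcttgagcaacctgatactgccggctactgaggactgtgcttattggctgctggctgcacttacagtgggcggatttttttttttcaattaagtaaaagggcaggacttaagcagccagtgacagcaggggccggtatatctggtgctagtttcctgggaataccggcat
Slc25a36: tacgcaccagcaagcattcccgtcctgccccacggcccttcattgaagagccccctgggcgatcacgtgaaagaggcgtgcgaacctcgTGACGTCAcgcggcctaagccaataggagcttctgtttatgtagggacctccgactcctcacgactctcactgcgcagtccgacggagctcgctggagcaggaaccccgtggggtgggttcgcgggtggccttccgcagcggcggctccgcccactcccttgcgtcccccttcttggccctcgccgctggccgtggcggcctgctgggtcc
The window of Slc25a25 is 1 of 3 for this gene and belongs to an alternative start that lies 27379 bases inside the gene as the deposited table bounds it, and the counts do not tell its starts apart. The element begins 150 bases before that alternative start, and 161 bases before the start of Slc25a36. Windows run from 250 bases before to 50 after a start, and 36 of the 47 members had at least 1 (46 windows). The motif reads alike on both strands and lay in 588 of 32851 windows of all genes (1.79%) and in 2 of the 46 member windows (4.35%). A match describes letters and says nothing of binding. The pair did not vary alike, since Slc25a36 stayed between 24.0 and 32.0 CPM in all libraries.

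Slc25a36 (ENSMUSG00000032449; mm10, chromosome 9, 97074961 to 97111157, minus strand) carries pyrimidine nucleotides needed for mitochondrial DNA and RNA. It was at 24.8, 24.0, 24.6, 27.3 and 27.3 CPM in the MDA-MB-231 EV group, against 32.0, 27.1, 29.4 and 31.6 CPM in MCF-10A EV. MCF-10A EV replicate 2 lay just below the highest MDA-MB-231 EV libraries, and the rest of the groups were apart. The log2 fold change was -0.23 ± 0.091 (SE; edgeR unadjusted p = 0.0262, adjusted p = 0.334), and from -0.28 to -0.08 over the alternatives. Slc25a33, the related pyrimidine carrier that insulin signalling induces, was at 7.54 to 11.1 CPM in MDA-MB-231 EV and 6.30 to 10.3 CPM in MCF-10A EV (log2 fold change 0.16 ± 0.17, SE).

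Carriers of cofactors were the largest role group, with 9 members, all tested, 3 above 0 and 6 below 0. Slc25a16 (ENSMUSG00000071253; mm10, chromosome 10, 62920633 to 62946498, plus strand) has been linked to coenzyme A transport. It was at 25.6, 24.2, 25.9, 29.1 and 26.0 CPM in the MDA-MB-231 EV group, against 31.8, 31.3, 28.6 and 29.6 CPM in MCF-10A EV. MDA-MB-231 EV replicate 4 lay within the MCF-10A EV range and the other 4 below it. The log2 fold change was -0.21 ± 0.088 (SE; edgeR unadjusted p = 0.0328, adjusted p = 0.348), and from -0.25 to -0.07 over the alternatives. Slc25a42, the coenzyme A carrier, was at 50.7, 64.0, 52.9, 52.4 and 58.2 CPM in the MDA-MB-231 EV group and 37.8, 36.5, 49.996 and 63.7 CPM in MCF-10A EV, with the lowest libraries MCF-10A EV replicates 1 and 2. Its log2 fold change was 0.24 ± 0.16 (SE). It was 0.42 when MCF-10A EV replicate 4 was left out, and -0.03 when replicates 1 and 2 were.

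Slc25a39, another cofactor carrier, was at 50.5 to 61.8 CPM in MDA-MB-231 EV and 47.4 to 79.4 CPM in MCF-10A EV. Its log2 fold change was -0.06 ± 0.14 (SE), and 0.11 without MCF-10A EV replicate 2. Slc25a51, which brings NAD into the matrix, varied least of the 40 tested members, with a coefficient of variation of 6.19% over the 9 libraries. It was at 70.6 to 82.8 CPM in MDA-MB-231 EV and 82.7 to 86.8 CPM in MCF-10A EV. The ranges overlapped only narrowly, with the highest MDA-MB-231 EV library at 82.80 CPM and the lowest MCF-10A EV library at 82.74 CPM. Its log2 fold change was -0.11 ± 0.084 (SE; edgeR adjusted p = 0.596).

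Slc25a20 brings acylcarnitines in for fatty acid oxidation and returns free carnitine. It was at 75.7, 79.9, 64.2, 45.9 and 55.6 CPM in the MDA-MB-231 EV group, against 39.9, 57.1, 60.2 and 56.6 CPM in MCF-10A EV. MDA-MB-231 EV replicates 1, 2 and 3 lay above all MCF-10A EV libraries, while replicates 4 and 5 lay among them. Its log2 fold change was 0.26 ± 0.17 (SE; edgeR adjusted p = 0.525), and 0.15 without MCF-10A EV replicate 1. The summed CPM of the slow-fibre markers, all 12 above 0 in log2 fold change, was lowest in MCF-10A EV replicate 1 and MDA-MB-231 EV replicate 4, which were also the libraries with the least Slc25a20. Their part in this value was not tested.

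The iron carriers of the inner membrane, the mitoferrins, were both below 0. Slc25a28, the form used outside the red cell line, was at 29.5, 31.5, 25.9, 27.0 and 25.9 CPM in the MDA-MB-231 EV group, against 41.1, 43.8, 28.3 and 27.1 CPM in MCF-10A EV. The gap lay in MCF-10A EV replicates 1 and 2, while replicates 3 and 4 lay among the MDA-MB-231 EV libraries. Its log2 fold change was -0.32 ± 0.15 (SE; edgeR adjusted p = 0.391), -0.20 without replicate 2 and 0.01 without replicates 1 and 2 together. Slc25a37, the form of red cell precursors, was at 16.4 to 20.1 CPM in MDA-MB-231 EV and 17.8 to 20.2 CPM in MCF-10A EV, a log2 fold change of -0.11 ± 0.095 (SE) that was 0.02 with unscaled library sizes. The 6 erythroid markers, 4 of them tested and all 4 below 0, summed to 247 to 457 CPM in MDA-MB-231 EV and 203 to 724 CPM in MCF-10A EV.

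Of 5 amino acid carriers 4 were tested, 2 above 0 and 2 below 0. Slc25a44, which carries branched-chain amino acids, was at 33.7 to 39.0 CPM in MDA-MB-231 EV and 37.7 to 44.9 CPM in MCF-10A EV (log2 fold change -0.16 ± 0.089, SE; edgeR adjusted p = 0.466). Slc25a29, a carrier of basic amino acids named after its values were seen, was at 9.62 to 17.1 CPM in MDA-MB-231 EV and 6.84 to 12.0 CPM in MCF-10A EV (log2 fold change 0.40 ± 0.19, SE; edgeR adjusted p = 0.392). Slc25a38, the glycine carrier of haem synthesis, and Slc25a15, the ornithine carrier of the urea cycle, had log2 fold changes of 0.23 ± 0.13 and -0.02 ± 0.12 (SE).

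The citrate carrier Slc25a1, which exports citrate for fatty acid synthesis, and the dicarboxylate carrier Slc25a10 were named after their values were seen, because 1 library carried the difference in both. Slc25a1 was at 6.21, 8.50, 11.4, 52.8 and 10.4 CPM in the MDA-MB-231 EV group, against 14.3, 5.75, 5.44 and 11.6 CPM in MCF-10A EV. Slc25a10 was at 5.20, 7.18, 8.70, 28.9 and 8.53 CPM in the MDA-MB-231 EV group, against 12.8, 5.52, 4.31 and 7.40 CPM in MCF-10A EV. In both, MDA-MB-231 EV replicate 4 was far above all other libraries and MCF-10A EV replicate 1 was the next highest. The log2 fold changes were 0.94 ± 0.69 for Slc25a1 and 0.64 ± 0.54 for Slc25a10 (SE), and without MDA-MB-231 EV replicate 4 they were -0.03 and -0.02. The 7 adipocyte markers, all 7 above 0 in log2 fold change and none at 0, summed to 193, 263, 309, 807 and 291 CPM in MDA-MB-231 EV and 476, 117, 185 and 339 CPM in MCF-10A EV. The same 2 libraries stood highest in these sums, and Adipoq, which defines adipocytes, was at 63.5 CPM in MDA-MB-231 EV replicate 4 and 30.7 CPM in MCF-10A EV replicate 1. Their part in the carrier values was not tested.

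**Figure D5:**
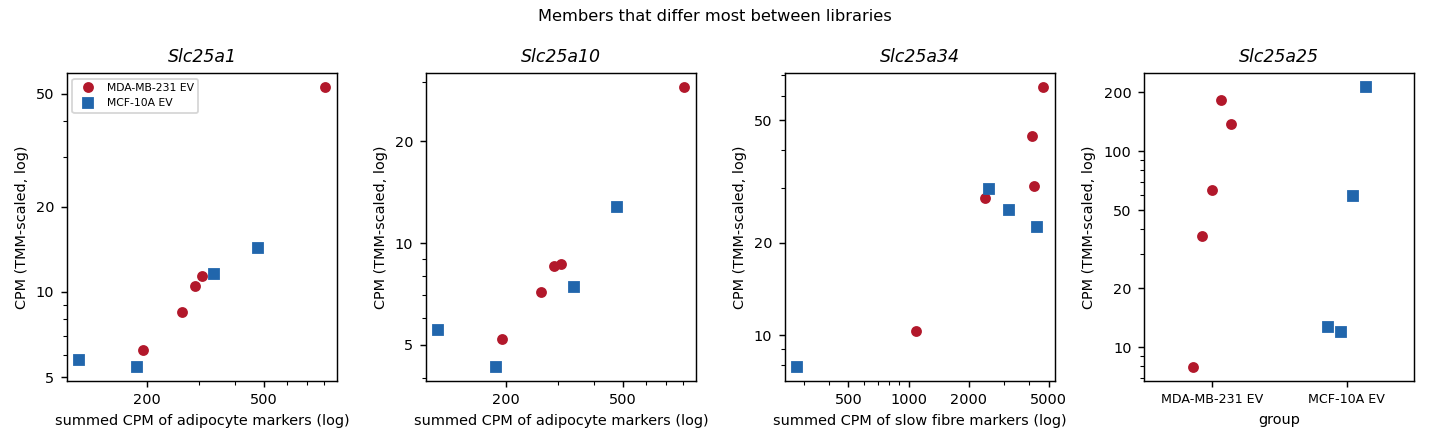
TMM-scaled CPM, on log axes, of Slc25a1 and Slc25a10 against the summed CPM of 7 adipocyte markers, of Slc25a34 against the summed CPM of 12 slow-fibre markers, and of Slc25a25 by group, 1 point per library with MDA-MB-231 EV in red and MCF-10A EV in blue. MDA-MB-231 EV replicate 4 is the point at 52.8 CPM of Slc25a1 and 807 CPM of adipocyte markers, and Slc25a25 runs from 7.98 to 212 CPM.

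Among carriers with no settled substrate, 8 members of which 5 were tested, Slc25a34 (ENSMUSG00000040740; mm10, chromosome 4, 141618824 to 141623821, minus strand) was the most abundant at 11.1 ± 6.71 FPKM (SD, n = 9 libraries). It was at 64.0, 44.4, 30.7, 10.3 and 27.96 CPM in the MDA-MB-231 EV group, against 7.92, 22.5, 25.5 and 29.9 CPM in MCF-10A EV. The slow-fibre sums were 4692, 4109, 4244, 1093 and 2401 CPM in MDA-MB-231 EV and 278, 4378, 3166 and 2516 CPM in MCF-10A EV, and the libraries with the lowest and second lowest sums were those with the least Slc25a34. The log2 fold change was 0.72 ± 0.53 (SE; edgeR adjusted p = 0.583), 0.45 without MCF-10A EV replicate 1, 0.40 without MDA-MB-231 EV replicate 1 and 0.36 when the first 2 MCF-10A EV replicates were left out. The part of the slow-fibre genes in it was not tested. Its promoter is shown because it was the sole member window with AAGGTCA, the core of the site of oestrogen-related receptors, which drive oxidative genes in muscle. The letters in capitals are that core as read on the other strand (RefSeq, GRCm38.p6, minus strand, chr4:141623785-141624084).
Slc25a34: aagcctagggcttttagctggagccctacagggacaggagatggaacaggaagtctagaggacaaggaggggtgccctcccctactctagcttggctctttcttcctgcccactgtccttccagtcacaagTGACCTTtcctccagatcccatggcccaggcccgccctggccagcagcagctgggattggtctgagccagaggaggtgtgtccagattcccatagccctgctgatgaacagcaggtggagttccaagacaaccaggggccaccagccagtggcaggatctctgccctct
The core begins 119 bases before the start. Searched on both strands, it lay in 4.72% of all windows and in 1 of the 46 member windows (2.17%), and neither motif searched contains the other.

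Of the uncoupling-protein-like carriers, Slc25a30, known from kidney, was at 2.02 to 4.24 CPM in MDA-MB-231 EV and 2.04 to 3.63 CPM in MCF-10A EV, with a log2 fold change of 0.33 ± 0.25 (SE). The other two are best known from brain. Slc25a14 was at 1.07 to 2.42 CPM in MDA-MB-231 EV and 1.17 to 2.09 CPM in MCF-10A EV. Slc25a27 was at 4.66 to 6.94 CPM in MDA-MB-231 EV and 4.74 to 7.45 CPM in MCF-10A EV. Slc25a46, an outer membrane member that acts in mitochondrial shape rather than transport, was at 34.3 to 43.8 CPM in MDA-MB-231 EV and 36.7 to 48.0 CPM in MCF-10A EV.

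The 7 members that were not tested were Slc25a41, Slc25a43, Slc25a2, Slc25a48, Slc25a31, Slc25a21 and Slc25a54, with mean FPKM from 0.00675 to 0.152. Counting Slc25a18, 8 members had at least 1 library at 0 counts. At 4 places in the genome members stand next to each other with no annotated gene between, at unlike levels. Slc25a41 lies 2056 bases from Slc25a23 on chromosome 17, at 0.152 and 7.76 FPKM. Slc25a54 lies 6461 bases from Slc25a24 on chromosome 3, at 0.00675 and 1.73 FPKM. Slc25a43 lies 18448 bases from Slc25a5 on chromosome X, at 0.0832 and 33.5 FPKM, and Slc25a47 lies 15245 bases from Slc25a29 on chromosome 12, at 0.535 and 5.95 FPKM.

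How much libraries differed was also counted. The median coefficient of variation was 18.3% over the 40 tested members and 18.8% over all tested genes, and 6 members exceeded 50%, where 6.23% of all genes did. These 6 were Slc25a1, Slc25a25, Slc25a10, Slc25a18, Slc25a34 and Slc25a13.

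Genes that serve the carriers were counted beside them. None of the following lists had a gene that passed, and each is given by its counts at an unadjusted edgeR p under 0.05. Over all genes tested, 5.95% were higher and 6.86% lower at that level. Of 7 carriers without the Slc25 name (uncoupling proteins, Mtch and Mpc genes), 6 were tested, 3 above 0 and 3 below 0, with 0 higher and 1 lower, Mtch2, an outer membrane insertase, at 96.8 ± 1.13 CPM in MDA-MB-231 EV (SD, n = 5) and 116 ± 13.9 CPM in MCF-10A EV (SD, n = 4). The 3 outer membrane channels (Vdac) were all below 0, with 1 lower, Vdac2, at 245 ± 5.32 CPM in MDA-MB-231 EV and 289 ± 28.1 CPM in MCF-10A EV. Of 16 tested genes of the machinery that inserts proteins into mitochondria, 9 were above 0 and 7 below 0, with 1 lower, Timm23, at 156 ± 3.38 CPM in MDA-MB-231 EV and 189 ± 8.09 CPM in MCF-10A EV. Of 10 enzymes beside the carriers, 7 were above 0 and 3 below 0. Mdh1, the cytosolic malate dehydrogenase, was at 537 ± 68.3 CPM in MDA-MB-231 EV and 410 ± 96.5 CPM in MCF-10A EV. Cpt2, which reforms acyl-CoA in the matrix, was at 70.7 ± 12.0 CPM in MDA-MB-231 EV and 54.5 ± 9.75 CPM in MCF-10A EV. Gpd2, the enzyme of the glycerol phosphate shuttle, was at 126 ± 22.1 CPM in MDA-MB-231 EV and 171 ± 31.9 CPM in MCF-10A EV. Mdh1 and Cpt2 were higher and Gpd2 lower at the unadjusted level. The 16 mitochondrial mass markers had 0 higher and 0 lower, with a median log2 fold change of 0.01.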

How the data were processed

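RNA was extracted with Trizol from gastrocnemius and poly-A selected before library making by Novogene, per the labels' protocols. The authors deposited whole-number counts per gene on mm10 and FPKM values, and each FPKM compared equals count over length and library sum within 0.1% (100% of 161066 nonzero values), so the deposited FPKM carry no scaling between libraries. The tools named, per the submitters' processing notes and without their roles, are STAR 2.5, TopHat, edgeR, HTSeq 0.6.1 and DESeq2. The strand setting, how reads shared by similar genes were treated, and the annotation release are not given in the sources used here. Overlapping genes on opposite strands, and reads shared by near-identical copies, are therefore uncertain.

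Members were matched by symbol and gene type in the deposited table. Counts of all genes were tested with edgeR 4.0.16 in R 4.3.3 (quasi-likelihood F-test, TMM scaling, robust, filterByExpr with minimum count 10 and minimum total count 15, group as the term, two-sided, Benjamini-Hochberg over all genes tested). A positive log2 fold change means higher in MDA-MB-231 EV. The test was tried on simulated data in which all genes shared a common dispersion. Planted changes there were larger than most seen here, so that trial does not show how well small differences are found. Alternatives were RLE factors, unscaled library sizes, no count filter, CPM of 1 in 4 libraries, no robust dispersion, DESeq2 1.42.0, limma 3.58.1 voom, the replicate number as a block, leaving out libraries, and limma on log2(FPKM + 1) and on log2(FPKM + 0.1).

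Members with values in the text were a listed set of carriers, the 5 highest by FPKM, those with an unadjusted p under 0.05 and those without overlap, and any other was chosen after its values were seen. The values of 1 tested member are not reported here, though it stays in the counts and medians. Members and lists were chosen with earlier results of these data known. Coding sequences come from GENCODE M21, in which 30 of 47 members have the start and end of the deposited table, and were aligned with Biopython 1.88. Promoters come from RefSeq. Python 3.11.15 with matplotlib 3.10.9 drew the figures. Per-sample columns left out numbered 0.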

Additional observations from a re-analysis of the deposited data

Results flagged for a closer look

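Over the 40 tested members and both groups, 80 sets of library values were looked at, and in 6 of them 1 library stood apart from the rest of its group, where chance gives about 1 in 20. In MDA-MB-231 EV replicate 4, Slc25a1 was at 52.8 CPM, with the next library of its group at 11.4 CPM, and Slc25a10 was at 28.9 CPM, with the next at 8.70 CPM. The summed adipocyte markers were highest in the same library, at 807 CPM, and their part was not tested. MDA-MB-231 EV replicate 1 had the lowest Slc25a30, at 2.02 CPM, with the next at 3.78 CPM. In MCF-10A EV replicate 2, Slc25a46 was highest at 48.0 CPM, with the next at 38.1 CPM. MCF-10A EV replicate 3 had the highest Slc25a23, at 30.7 CPM, with the next at 21.01 CPM. MCF-10A EV replicate 1 had the lowest Slc25a15, at 11.5 CPM, with the next at 15.4 CPM.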

How the results depend on the processing

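In edgeR and limma 0 members passed under any alternative, and DESeq2 called 1, Slc25a12. Members higher at an unadjusted p under 0.05 numbered 1 in edgeR (5.95% of all genes) and 8 with unscaled library sizes (14.7%), 2 without a count filter (4.71%), 2 with voom (6.13%), 10 with log2(FPKM + 1) (15.9%), 10 with log2(FPKM + 0.1) (15.8%) and 0 with the replicate block (3.86%). They numbered 1 to 5 when each library was left out (4.65% to 6.72% of all genes). Members lower numbered 3 (6.86% of all genes), and 0 with unscaled library sizes (1.62%), with log2(FPKM + 1) and log2(FPKM + 0.1) (1.5% each) and with the replicate block (3.46%), and 1 to 4 when each library was left out (4.76% to 8.34%). This number was 1 when MCF-10A EV replicate 1 or MDA-MB-231 EV replicate 1 or 3 was left out. Higher members were 2 without MCF-10A EV replicate 2, MDA-MB-231 EV replicate 1 or MDA-MB-231 EV replicate 5, and 3 with MCF-10A EV replicate 3 left out. The median log2 fold change of 0.14 was 0.27 with unscaled library sizes, 0.23 with log2(FPKM + 0.1), 0.043 to 0.15 when each library was left out, and 0.010 without MCF-10A EV replicates 1 and 2 together. The cause of these shifts was not tested.

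For 24 named members under 20 alternatives, 459 results kept direction and side of the threshold, 1 crossed it (Slc25a12 in DESeq2) and 20 changed sign, and 15 members kept their sign in all. Slc25a37 was 0.020 with unscaled library sizes, 0.015 with log2(FPKM + 1) and 0.019 with log2(FPKM + 0.1). Slc25a39 was 0.084, 0.099 and 0.10 under these settings, 0.015 with the replicate block, 0.11 with MCF-10A EV replicate 2 left out and 0.21 with MCF-10A EV replicates 1 and 2 both left out. Slc25a25 was -0.15 without MCF-10A EV replicate 1 or 2, -0.27 and -0.025 without MDA-MB-231 EV replicates 4 and 5, and -0.66 without MCF-10A EV replicates 1 and 2 together, and at most 1.60 when a library was left out (MCF-10A EV replicate 4). Without MDA-MB-231 EV replicate 4, Slc25a1 was -0.025 and Slc25a10 -0.020, the lowest when a library was left out; the highest were 1.23 and 1.03, without MCF-10A EV replicate 1. Without both MCF-10A EV replicates 1 and 2, Slc25a3 was -0.0081, Slc25a33 -0.055, Slc25a28 0.011 and Slc25a42 -0.034.

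Replicate numbers are shared between the groups, but deviations of same-numbered libraries from their group means correlated at -0.299, -0.178, 0.038 and 0.080 for numbers 1 to 4 over 13901 genes, so the numbers were not taken to pair the libraries. Slc25a13 rested on 3 to 61 counts a library.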
